A study of Mus musculus with 12 samples.

Results

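The interleukin genes of the mouse kidney were described at day 1 after HP-AKI or sham treatment. They were chosen by name alone, as the protein-coding genes whose symbol begins with Il and a digit, a rule that uses no measured value. This gave 82 genes of 22032 protein-coding genes and of 43346 genes listed in all. Of the 82, 39 encode ligands, 40 encode receptors or soluble binding proteins, and 3 are named for an interleukin without being either. Grouped by cytokine family, 20 belong to the IL-1 family, 16 to the IL-6 and IL-12 family, 14 to the common gamma chain family, 11 to the IL-10 family and 11 to the IL-17 family, and the other 10 are IL-13, IL-3, IL-5 and their receptors and genes outside these families. The libraries were 12 in all, 6 labelled sham (samples 1 to 6) and 6 labelled HP-AKI (samples 7, 8, 9, 11, 12 and 13), each made from total RNA of kidney. The labels do not spell out HP-AKI. In this field the letters are used for heme protein-induced acute kidney injury, in which an excess of myoglobin or hemoglobin reaches the kidney. Strain, genotype, sex, age and the means of injury are not given in the sources used here. Whether each library comes from its own mouse is not stated, so a p-value here speaks only of the spread among these 12 libraries, part of which may be technical.

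Interleukins are secreted signals, and their receptors are built from shared chains. Ligands of the IL-1 family signal through paired receptors with a cytoplasmic TIR domain and the adaptor MyD88 to NF-kB, and they are held in check by receptor antagonists, decoy receptors and binding proteins. Ligands of the IL-6, IL-10 and common gamma chain families signal through JAK kinases and STAT transcription factors, with gp130 (Il6st), IL-10 receptor beta (Il10rb) and the common gamma chain (Il2rg) as their shared chains. Both leukocytes and the tubular epithelium make and receive these signals in an injured kidney.

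The libraries held 31624522 to 41951129 counts assigned to genes. On log2 counts-per-million values (CPM, counts scaled to library size) the first principal component carried 83.3% of the variance and separated the groups, and the second carried 8.92%, with HP-AKI 8, sham 2 and sham 1 at one end and HP-AKI 13 at the other. No pair of libraries of a group was identical. All 8 proximal tubule markers were present and passed the test as lower in HP-AKI, where 35.2% of all genes tested did. The summed level of these markers was 14280 to 15379 CPM in sham and 2689 to 4033 CPM in HP-AKI. In whole tissue, fewer cells of a type and less RNA per cell cannot be told apart, and this holds for every level below. The TruSeq RNA v2 kit does not keep the strand, and exons of 23 of the 82 genes overlap an exon of another gene, so reads of such pairs cannot be told apart. Of the tested genes this touches Il1b, Il1rap, Il18bp, Il6ra, Il11ra1, Il27ra, Il31ra, Il7, Il4ra, Il2rg, Il10rb, Il17rb, Il34, Il16 and Il4i1. Of the genes too rare to test it touches Il1a, Il31, Il12rb2, Il3ra, Il5, Il21, Il27 and Il17b.

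Promoter sequence was matched for 65 of the 82 genes, from RefSeq on GRCm38.p6, and the 250 bases before the start site were searched on both strands for TGANTCA (AP-1), GGANNTTCC (NF-kB), TTGCNNAA (C/EBP), TTCNNNGAA (STAT) and the TATA box letters TATAAA. The 4 windows printed belong to Il6 and Il1f9, among the ligands with the largest rises, to Il1b, and to Il22ra1, the receptor with the largest fall. They are written 5′ to 3′ on the gene's strand, and capitals mark the matches, none of which overlapped another.
Il6 promoter, chr5:30012864-30013113, plus strand: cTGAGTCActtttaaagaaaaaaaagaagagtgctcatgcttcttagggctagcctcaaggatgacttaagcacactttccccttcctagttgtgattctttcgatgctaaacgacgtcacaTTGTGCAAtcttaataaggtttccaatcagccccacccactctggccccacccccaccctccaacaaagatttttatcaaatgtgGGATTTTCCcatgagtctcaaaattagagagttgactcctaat
Il1f9 promoter, chr2:24186226-24186475, plus strand: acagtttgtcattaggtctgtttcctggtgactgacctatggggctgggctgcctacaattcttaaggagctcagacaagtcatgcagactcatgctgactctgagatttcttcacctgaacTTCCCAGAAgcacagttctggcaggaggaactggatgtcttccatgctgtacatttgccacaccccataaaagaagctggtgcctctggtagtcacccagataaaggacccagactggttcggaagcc
Il1b promoter, chr2:129371140-129371389, minus strand: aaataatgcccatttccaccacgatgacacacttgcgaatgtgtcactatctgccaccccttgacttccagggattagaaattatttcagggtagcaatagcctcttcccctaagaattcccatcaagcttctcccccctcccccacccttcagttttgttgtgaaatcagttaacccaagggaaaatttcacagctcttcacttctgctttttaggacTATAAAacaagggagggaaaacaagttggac
Il22ra1 promoter, chr4:135727909-135728158, plus strand: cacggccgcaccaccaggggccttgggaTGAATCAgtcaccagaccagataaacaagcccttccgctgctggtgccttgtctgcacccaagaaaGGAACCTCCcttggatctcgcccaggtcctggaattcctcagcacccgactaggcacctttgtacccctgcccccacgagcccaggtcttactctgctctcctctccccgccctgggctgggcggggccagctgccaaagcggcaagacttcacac
The Il6 window held an AP-1 match 249 bases, a C/EBP match 128 bases and an NF-kB match 43 bases before the start. In Il1f9 a STAT match began 128 bases before the start, and in Il1b a TATA match began 31 bases before it. Il22ra1, whose level was lower in HP-AKI, also held matches to AP-1, 222 bases before the start, and to NF-kB, 156 bases before it. Among the 20 interleukin genes that rose and had a promoter sequence, 2 held the AP-1 letters, 4 the NF-kB letters, 6 the C/EBP letters, 3 the STAT letters and 3 the TATA letters. Among the 8 that fell and had one, 4 held AP-1, 1 NF-kB, 2 C/EBP and 0 STAT or TATA. Over all 32851 promoter windows of the table the shares were 6.75% for AP-1, 3.59% for NF-kB, 9.56% for C/EBP, 7.02% for STAT and 12.4% for TATA. Over the 65 interleukin promoters, called or not, they were 18.5% for AP-1, 13.8% for NF-kB, 18.5% for C/EBP, 9.23% for STAT and 18.5% for TATA. A match is a run of letters and not a measured binding site.

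At day 1 of HP-AKI the ligands Il6, Il11, Il24, Il34 and the IL-36 agonists Il1f6 and Il1f9 were higher, and so were the IL-1 antagonist Il1rn, the decoy receptor Il1r2 and the receptor chains Il20rb, Il4ra and Il6ra. The ligands Il15 and Il1f5 and the receptors Il22ra1, Il17rb and Il2rb were lower. Of the 82 genes, 46 had enough counts to be tested, 36 did not, and 3 of these 36 (Il17a, Il3 and Il1rapl2) had no count in any library. In HP-AKI 26 of the 46 were higher and 12 lower at a threshold of 0.05 on the Benjamini-Hochberg adjusted p of edgeR's quasi-likelihood test over all genes tested, and 8 did not pass. This makes 38 of 46 called, against 72.8% of all 17470 genes tested, of which 37.7% were higher and 35.2% lower. Most genes of this comparison were called, so a call alone is no result about the interleukin genes. Amounts by which a gene rose or fell are log2 fold changes throughout. The ranges of the groups did not overlap in 27 of the 46, 20 higher and 7 lower, against 52.4% of all genes tested (26.7% higher and 25.8% lower). By size, 13 interleukin genes were higher with a log2 fold change of at least 2, where 5.73% of all genes tested were, and 3 were lower by at least that much, near the 5.08% of all genes. The median log2 fold change of the 46 was 0.45, beside 0.04 over all genes tested. The ligands gave 10 higher and 3 lower of 14 tested, and the receptors and binding proteins 15 higher and 9 lower of 31. Among these 46, Il11, Il1f6, Il1f9, Il1r2, Il1rn, Il24 and Il6 passed the count filter through HP-AKI alone, and Il1f5, Il1rl1, Il22ra1, Il2ra and Il2rb through sham alone. In the other group fewer than all 6 libraries reached the cutoff, so the filter favoured a difference in those 12.

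**Figure D1:**
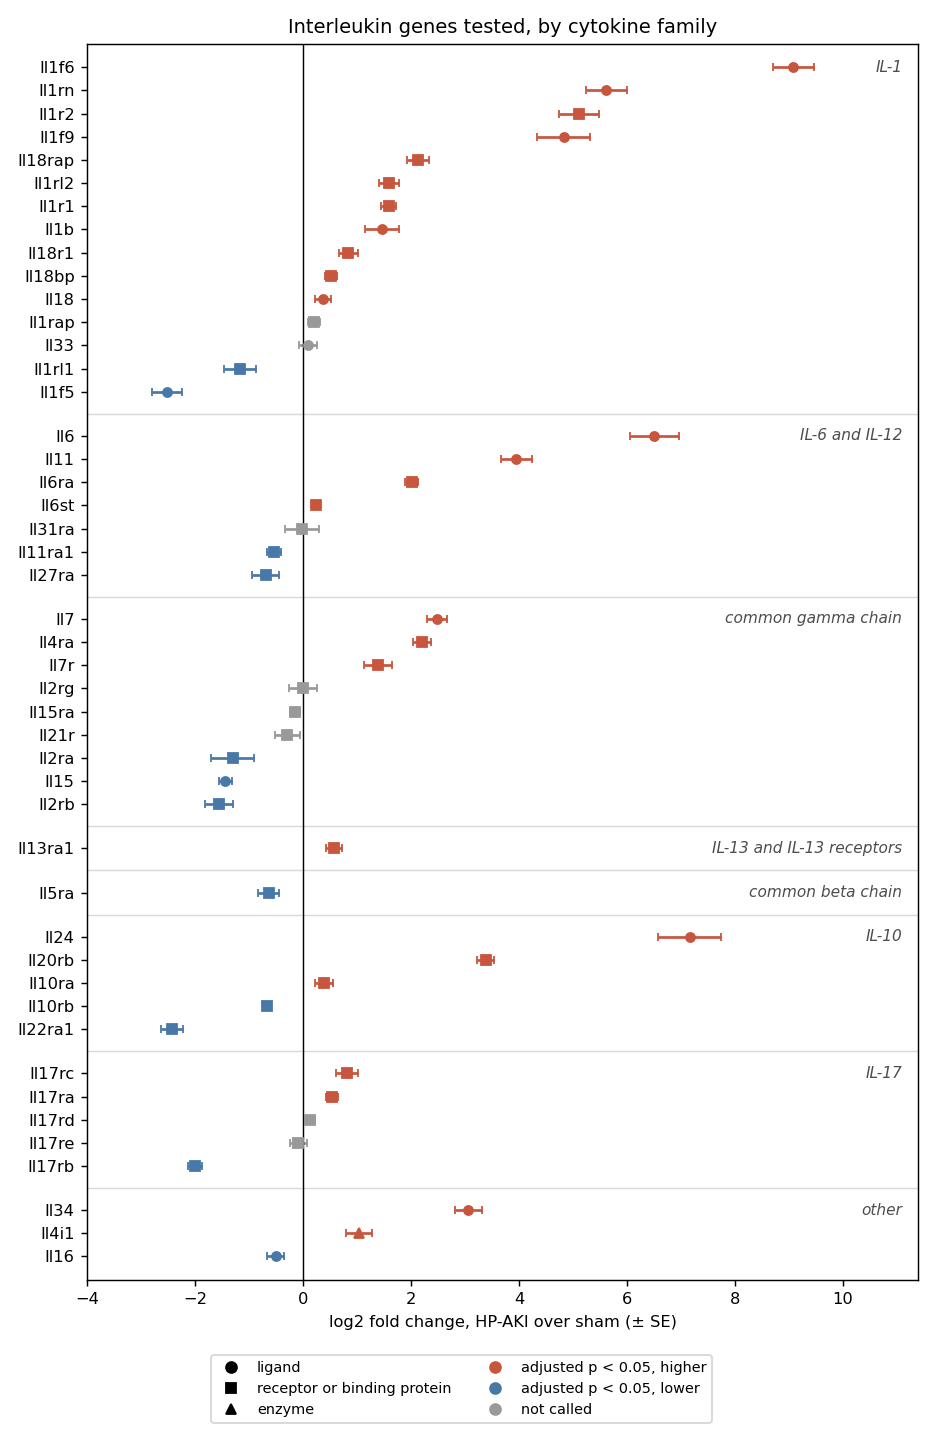
Log2 fold change of HP-AKI over sham (x axis, ± SE) for the 46 tested interleukin genes, grouped by family, with circles for ligands, squares for receptors and binding proteins and colour for the call at an adjusted p of 0.05. The 26 higher genes reach 9.08 in Il1f6, the 12 lower genes reach -2.52 in Il1f5, and the fitted value of Il24, which had no sham count, depends on the prior count and is no measured fold.

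Within the IL-1 family, 11 of 15 tested genes rose and 2 fell, where 37.7% of all genes tested were called higher and 35.2% lower. Of the agonists of the IL-36 receptor, Il1f6 and Il1f9 rose from near absence, and Il1f8 was too rare to test. Il1f6, which encodes IL-36 alpha, was at 0 to 0.0488 CPM in sham (median 0) and 5.49 to 9.17 CPM in HP-AKI (median 6.17). Its reads numbered 2 in sham, both in sham 6, and 1483 in HP-AKI, 735 times as many after scaling for depth, with an exact 95% interval of 203 to 6078 from counting alone. The fitted log2 fold change was 9.08 ± 0.39 (SE, adjusted p = 2.82e-11), and 10.94 without sham 6. Il1f9, IL-36 gamma, was at 0 to 0.0977 CPM in sham (median 0.0304) and 0.424 to 2.04 CPM in HP-AKI (median 1.12), with no overlap of the groups and a log2 fold change of 4.82 ± 0.49 (SE, adjusted p = 3.99e-07). The antagonist of the same receptor went the other way. Il1f5, the IL-36 receptor antagonist, was at 0.483 to 1.15 CPM in sham (median 0.886) and 0.0874 to 0.231 CPM in HP-AKI (median 0.132), again without overlap, and it fell by 2.52 ± 0.29 (SE, adjusted p = 1.16e-06) on the log2 scale. The receptor itself, Il1rl2, was at 4.05 to 6.67 CPM in sham (median 4.60) and 10.6 to 22.7 CPM in HP-AKI (median 14.2). It rose 3.01-fold, a log2 fold change of 1.59 ± 0.18 (SE, adjusted p = 1.54e-06). These 4 genes of the IL-36 group all differed without overlap, as 52.4% of all genes tested did. Of them the antagonist alone was lower. The count filter was passed by Il1f6 and Il1f9 through HP-AKI alone and by Il1f5 through sham alone.

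Of the other IL-1 ligands, the antagonist Il1rn changed most. Il1b, the classic inflammatory IL-1, was at 0.974 to 2.06 CPM in sham (median 1.51) and 1.81 to 8.04 CPM in HP-AKI (median 3.57). It rose by 1.46 ± 0.31 (SE, adjusted p = 0.00066) on the log2 scale, with the lowest HP-AKI library, HP-AKI 12, inside the sham range. Il18, a constitutive epithelial cytokine that needs cleavage, was at 1.75 to 2.64 CPM in sham (median 2.30) and 2.20 to 3.59 CPM in HP-AKI (median 3.05). Its log2 fold change of 0.36 ± 0.15 (SE, adjusted p = 0.0368) passed narrowly, the groups overlapped, and the call was lost in 11 of 20 alternative analyses. Il33, an alarmin held in the nucleus, was at 16.1 to 26.8 CPM in sham (median 19.8) and 15.6 to 29.0 CPM in HP-AKI (median 23.6), a log2 fold change of 0.09 ± 0.16 (SE, adjusted p = 0.63) that did not pass, and the groups covered nearly the same range. The receptor antagonist Il1rn, which blocks IL-1 receptor 1, was at 0.0531 to 0.342 CPM in sham (median 0.137) and 4.04 to 15.6 CPM in HP-AKI (median 8.01). All 6 HP-AKI libraries lay above all 6 sham libraries, and the log2 fold change was 5.61 ± 0.38 (SE, adjusted p = 3.95e-09).

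Receptors of the family rose with 1 exception among those that passed. Il1r2, the decoy receptor that binds IL-1 without signalling, was at 0.269 to 0.510 CPM in sham (median 0.308) and 5.12 to 23.9 CPM in HP-AKI (median 12.1), the largest rise of any interleukin receptor tested at 5.11 ± 0.37 (SE, adjusted p = 7.9e-09) on the log2 scale. Il1r1, the signalling receptor for IL-1, was at 14.0 to 18.7 CPM in sham (median 15.8) and 34.2 to 65.7 CPM in HP-AKI (median 47.4), a log2 fold change of 1.59 ± 0.14 (SE, adjusted p = 6.84e-08). Neither receptor had overlapping groups, and HP-AKI 8 was the highest library and HP-AKI 12 the lowest in both. The 2 chains of the IL-18 receptor rose as well. Il18r1, which binds the ligand, was at 1.43 to 2.74 CPM in sham (median 1.96) and 2.97 to 4.19 CPM in HP-AKI (median 3.54), a log2 fold change of 0.84 ± 0.17 (SE, adjusted p = 0.000379). Il18rap, the accessory chain, was at 1.12 to 2.01 CPM in sham (median 1.45) and 4.38 to 10.7 CPM in HP-AKI (median 6.22). Its log2 fold change was 2.13 ± 0.21 (SE, adjusted p = 2.54e-07), with 1 library, HP-AKI 8, well above the others. The secreted IL-18 binding protein, Il18bp, which neutralises IL-18, was at 5.36 to 6.64 CPM in sham (median 6.18) and 6.93 to 10.4 CPM in HP-AKI (median 8.36), without overlap and with a log2 fold change of 0.52 ± 0.11 (SE, adjusted p = 0.000748). Il1rl1, the receptor for IL-33 known as ST2, was lower, at 0.806 to 1.55 CPM in sham (median 1.05) and 0.123 to 0.670 CPM in HP-AKI (median 0.504), and fell by 1.17 ± 0.30 (SE, adjusted p = 0.00223). Il1rap, the chain shared by the receptors for IL-1, IL-33 and IL-36, was at 11.9 to 16.9 CPM in sham (median 12.8) and 13.2 to 18.3 CPM in HP-AKI (median 15.9), and its log2 fold change of 0.20 ± 0.11 (SE, adjusted p = 0.127) did not pass.

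In the IL-6 family the 2 ligands tested, Il6 and Il11, changed far more than the shared receptor chain. Both passed the count filter through HP-AKI alone, so a rise was favoured. Another 5 ligands of the IL-6 and IL-12 family were too rare to test. Fitted without a filter, Il12a, Il23a and Il31 were called higher. Il27, with 14 counts in sham and 13 in HP-AKI, and Il12b, with 37 and 16, did not pass. Il6 was at 0 to 0.121 CPM in sham (median 0.0647) and 3.10 to 9.55 CPM in HP-AKI (median 5.11), with no overlap and a log2 fold change of 6.50 ± 0.46 (SE, adjusted p = 5.63e-09). Its highest HP-AKI library was HP-AKI 8. Il11, a gp130 ligand made by stromal and epithelial cells, was at 0.0609 to 0.244 CPM in sham (median 0.170) and 1.64 to 3.48 CPM in HP-AKI (median 2.83), a log2 fold change of 3.95 ± 0.28 (SE, adjusted p = 6.78e-09), and here HP-AKI 7 was the highest. Il6ra, the ligand-binding chain for IL-6, was at 2.67 to 4.17 CPM in sham (median 3.58) and 12.8 to 16.0 CPM in HP-AKI (median 14.2). It rose 4.04-fold, a log2 fold change of 2.01 ± 0.12 (SE, adjusted p = 8.62e-10), and with narrow ranges the groups were far apart. Il6st, the signal-transducing chain gp130, was among the most abundant interleukin receptors at 292 to 336 CPM in sham (median 305) and 342 to 399.9 CPM in HP-AKI (median 352). It rose by 0.23 ± 0.07 (SE, adjusted p = 0.00506) on the log2 scale, a small change that still left no overlap. Il11ra1, the IL-11 receptor, was lower at 28.7 to 40.3 CPM in sham (median 35.6) and 19.8 to 31.1 CPM in HP-AKI (median 22.6) and fell by 0.54 ± 0.12 (SE, adjusted p = 0.000996). It has a near-identical copy, Il11ra2, with 1 count in each group, so its level is uncertain. Il27ra fell with overlapping groups at a mean under 1 CPM in both, and its call was lost in 4 of 19 alternative analyses. Il31ra did not pass and also had a mean under 1 CPM in both groups.

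**Figure D2:**
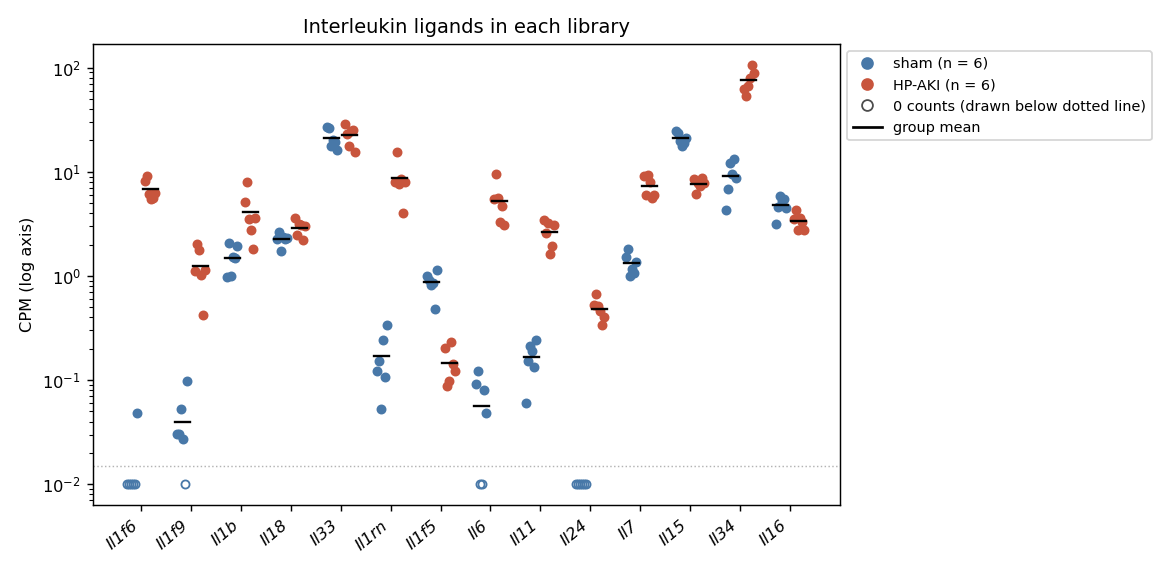
Level in CPM (log scale, y axis) of the 14 tested ligand genes in each library, with sham and HP-AKI side by side, 1 point per library and a line at the group mean. Libraries with no count are drawn below the dotted line, group means that would fall there are not drawn, and Il1f6, Il24 and Il6 move from 0 or near 0 in sham to 0.339 CPM or more in every HP-AKI library.

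Genes of the common gamma chain family moved in both directions. Of the 9 tested, 3 rose, 3 fell and 3 did not pass, beside 37.7% called higher and 35.2% lower over all genes tested. Il7, the stromal growth factor of lymphocytes, was at 1.01 to 1.82 CPM in sham (median 1.26) and 5.63 to 9.25 CPM in HP-AKI (median 7.02), a log2 fold change of 2.47 ± 0.19 (SE, adjusted p = 1.4e-08) without overlap. Its receptor chain Il7r was at 0.292 to 0.488 CPM in sham (median 0.428) and 0.622 to 1.86 CPM in HP-AKI (median 1.01) and rose by 1.38 ± 0.25 (SE, adjusted p = 0.000151). Il4ra, the chain that binds IL-4 and serves IL-13 as well, was at 9.10 to 16.4 CPM in sham (median 13.7) and 49.4 to 78.5 CPM in HP-AKI (median 57.7). The log2 fold change was 2.20 ± 0.16 (SE, adjusted p = 1.09e-08) and every HP-AKI library stood far above every sham library. Il15, which sustains natural killer and memory T cells, had the highest mean level per kilobase of the interleukin ligands in sham, and fell. It was at 17.6 to 24.6 CPM in sham (median 20.3) and 6.06 to 8.71 CPM in HP-AKI (median 7.81), and it fell by 1.44 ± 0.11 (SE, adjusted p = 2.08e-08) without overlap. Il2rb, the signalling chain that IL-2 and IL-15 share, was at 1.00 to 1.64 CPM in sham (median 1.27) and 0.185 to 0.641 CPM in HP-AKI (median 0.494) and fell by 1.56 ± 0.25 (SE, adjusted p = 4.56e-05). Il2ra, the high-affinity IL-2 chain, fell with overlapping groups at a mean under 1 CPM in both. The IL-15 presenting chain Il15ra was at 27.9 to 39.99 CPM in sham (median 34.6) and 28.4 to 34.7 CPM in HP-AKI (median 30.5), a log2 fold change of -0.15 ± 0.09 (SE, adjusted p = 0.153) that did not pass. Il2rg, the common chain, was at 5.31 to 7.06 CPM in sham (median 5.93) and 3.39 to 11.2 CPM in HP-AKI (median 5.27). Its fitted log2 fold change of 0.00 ± 0.26 (SE, adjusted p = 0.994) came with a wide HP-AKI range topped by HP-AKI 8 and turned negative under several alternatives without passing in any. Il21r did not pass and had a mean under 1 CPM in both groups.

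Outside the gamma chain, Il13ra1, which pairs with Il4ra in the receptor for IL-13, stood with Il6st at the head of the interleukin receptors in level per kilobase. It was at 92.8 to 153 CPM in sham (median 104) and 137 to 243 CPM in HP-AKI (median 151) and rose by 0.58 ± 0.15 (SE, adjusted p = 0.00278) on the log2 scale with overlapping groups. Il5ra, the IL-5 receptor chain known from eosinophils, was at 1.88 to 2.59 CPM in sham (median 2.31) and 0.786 to 2.05 CPM in HP-AKI (median 1.47) and fell by 0.64 ± 0.19 (SE, adjusted p = 0.00676), also with overlap.

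In the IL-10 family the ligand Il24 rose, while the chains of its receptors diverged. No read of Il24 was counted in sham and 107 were in HP-AKI, where every library held it, at 0.339 to 0.670 CPM (median 0.488). Set against 3 counts in all sham libraries together, this is at least 35.4-fold higher, with an adjusted p of 1.14e-06 in the edgeR test. Il20rb, the receptor chain used by IL-19, IL-20 and IL-24, was at 0.879 to 1.64 CPM in sham (median 1.11) and 10.5 to 14.1 CPM in HP-AKI (median 12.5), a log2 fold change of 3.38 ± 0.15 (SE, adjusted p = 4.71e-11), and its HP-AKI libraries lay close together. Il22ra1, which pairs with Il20rb for IL-20 and IL-24 and with Il10rb for IL-22, was at 2.40 to 3.48 CPM in sham (median 3.04) and 0.262 to 0.860 CPM in HP-AKI (median 0.574). It fell by 2.43 ± 0.21 (SE, adjusted p = 5.88e-08), without overlap. Reads of Il20ra, the remaining partner of Il20rb, numbered 5 in sham and 8 in HP-AKI. Il10rb, the chain shared by the receptors for IL-10 and IL-22, was at 58.3 to 64.4 CPM in sham (median 60.7) and 33.2 to 44.6 CPM in HP-AKI (median 38.5) and fell by 0.68 ± 0.08 (SE, adjusted p = 9.96e-07). Il10ra, the IL-10 binding chain of leukocytes, was at 3.41 to 7.48 CPM in sham (median 5.50) and 5.44 to 8.62 CPM in HP-AKI (median 7.13). Its log2 fold change of 0.38 ± 0.17 (SE, adjusted p = 0.0497) lay at the threshold, and the call was lost in 14 of 20 alternative analyses.

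Among the 5 IL-17 receptors, all of them tested, 2 rose, 1 fell and 2 did not pass. The shares over all genes tested were 37.7% called higher and 35.2% lower. None of the 6 IL-17 ligands had enough counts to be tested. Il17ra, the chain common to the family's receptors, was at 24.4 to 38.3 CPM in sham (median 34.9) and 41.6 to 54.9 CPM in HP-AKI (median 48.0), a log2 fold change of 0.54 ± 0.11 (SE, adjusted p = 0.000466) without overlap. Il17rc, its partner for IL-17A and IL-17F, was at 4.34 to 9.28 CPM in sham (median 7.07) and 7.05 to 14.7 CPM in HP-AKI (median 12.7) and rose by 0.81 ± 0.21 (SE, adjusted p = 0.00274) with overlapping groups. Il17rb, its partner for IL-25, was at 10.9 to 13.6 CPM in sham (median 11.9) and 2.21 to 3.84 CPM in HP-AKI (median 2.93) and fell by 2.01 ± 0.13 (SE, adjusted p = 2.19e-09), with every HP-AKI library far below every sham library. Il17rd was at 18.4 to 25.0 CPM in sham (median 22.2) and 21.4 to 27.9 CPM in HP-AKI (median 23.8). Il17re, the receptor chain for IL-17C, was at 5.28 to 9.33 CPM in sham (median 8.73) and 5.82 to 9.80 CPM in HP-AKI (median 7.55). Neither passed, and in both the groups covered much the same range.

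Of the genes outside these families, Il34 changed most. It encodes a ligand of the macrophage receptor CSF1R, which is structurally distinct from CSF1. Il34 was at 4.26 to 13.2 CPM in sham (median 9.16) and 53.5 to 106 CPM in HP-AKI (median 72.9), a log2 fold change of 3.06 ± 0.24 (SE, adjusted p = 2.4e-08), and every HP-AKI library stood far above every sham library. Il16, a chemoattractant made from a larger precursor, was at 3.14 to 5.84 CPM in sham (median 4.92) and 2.75 to 4.28 CPM in HP-AKI (median 3.41) and fell by 0.51 ± 0.16 (SE, adjusted p = 0.00932) with overlap. Il4i1, an amino acid oxidase induced by IL-4, rose with overlapping groups at a mean under 1 CPM in both, and it shares exon sequence with Nup62 on its own strand.

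**Figure D3:**
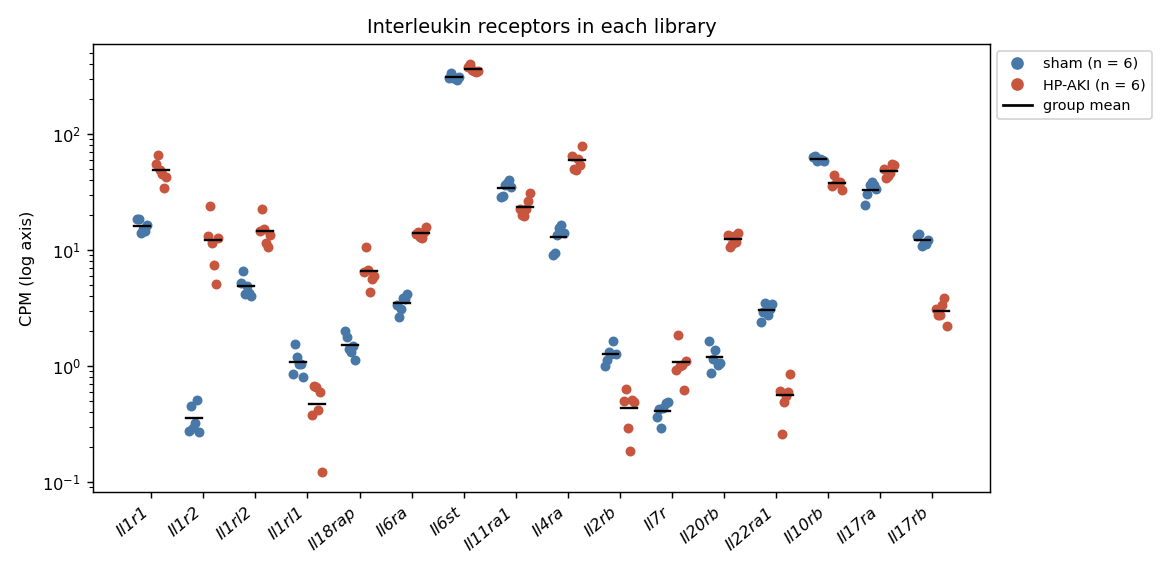
Level in CPM (log scale, y axis) of 16 called receptor genes in each library, with sham and HP-AKI side by side, 1 point per library and a line at the group mean. Among these 16, Il1r2 and Il20rb show the widest upward gaps and Il22ra1 and Il17rb the widest downward gaps, while Il6st moves little at a high level.

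The 36 genes too rare for the main test were fitted without a filter, where 49.9% of 29324 genes passed, 25.7% higher and 24.2% lower. Of the 33 with a count, 12 were higher, 2 lower and 19 did not pass. Il22ra2, the soluble decoy receptor for IL-22, went from 1 read to 108, which is 107 times as many after scaling for depth (interval 18.8 to 4270). Reads of Il22 itself numbered 0 and 4. The IL-10 family ligand Il19 went from 3 counts in sham to 62 in HP-AKI, 20.5 times as many (interval 6.70 to 102), and Il20 from 0 to 12. Il17c, an epithelial IL-17, went from 0 reads to 34, which makes it at least 11.2-fold higher when sham is set at 3 counts in all. Il31, a ligand that acts through Il31ra, had 0 and 17 counts, the latter from 4 of the 6 HP-AKI libraries. With sham set at 3 counts this is at least 5.62-fold higher. The groups overlapped, and HP-AKI 13 stood at 0.338 CPM beside an HP-AKI median of 0.0434 CPM. Il1a, the alpha form of IL-1, had 6 and 27 counts, and Il23a, a subunit of IL-23, had 11 and 53. In both genes the groups did not overlap. Il10, Il12a, Il12rb1, Il3ra and Il17d were the others that rose, and Il17f and Il12rb2 fell. Exons of Il1a, Il31, Il3ra and Il12rb2 overlap those of another gene, so some of their few reads may not be their own. Of cytokines known from T helper cells, Il17a and Il3 had no count, Il4 went from 7 counts to 2, Il5 from 3 to 12, Il9 from 0 to 3, Il13 from 0 to 1, Il2 from 2 to 3 and Il21 from 5 to 3. Il17f had more, 66 counts in sham and 38 in HP-AKI, with reads in all 12 libraries. A count of 0 over a group still allows up to 0.0137 CPM in sham and 0.0136 CPM in HP-AKI, for counting error only.

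Levels can be set against each other only per length, so CPM was divided by the listed gene length in kilobases. The ligand order changed between the groups. In sham, Il15 had the highest mean at 10.98 ± 1.43 CPM per kilobase (SD, n = 6), followed by Il33 at 7.31 ± 1.55 and Il34 at 4.64 ± 1.68, and then by Il18 at 3.18 ± 0.402. The range of each of these 4 overlapped that of its neighbour in the order. In HP-AKI, Il34 led at 38.8 ± 9.86, and Il33 at 7.78 ± 1.71, Il1f6 at 7.70 ± 1.71 and Il6 at 4.88 ± 2.15 followed with overlapping ranges. Il18 at 4.08 ± 0.707 and Il15 at 4.04 ± 0.496 came next, and their ranges overlapped each other and that of Il6. Thus IL-36 alpha stood at the level of Il33 in HP-AKI after being almost absent in sham. Among the receptors Il13ra1 and Il6st led in both groups. Il13ra1 was at 30.2 ± 5.93 in sham and 45.02 ± 10.7 in HP-AKI, and Il6st at 27.8 ± 1.34 and 32.6 ± 2.02. Their ranges overlapped in sham and not in HP-AKI.

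Ratios within each library show how chosen partners shifted against each other, per kilobase. The decoy Il1r2 stood at 0.0737 ± 0.0239 (SD, n = 6) of Il1r1 in sham and at 0.807 ± 0.272 in HP-AKI. The antagonist Il1rn stood at 0.0378 ± 0.0177 of Il1b in sham and at 0.756 ± 0.169 in HP-AKI. Both ratios were higher in all 6 HP-AKI libraries than in any sham library. At the RNA level the blocking partner thus gained on the signalling one in these pairs. Il1r2 and Il1rn passed the count filter through HP-AKI alone. No ratio was taken for IL-36, where the antagonist Il1f5 fell and the agonists Il1f6 and Il1f9 rose. The ratio of Il18bp to Il18 was 1.38 ± 0.129 in sham and 1.56 ± 0.340 in HP-AKI, with overlap. Il6ra stood at 0.0377 ± 0.00688 of Il6st in sham and 0.129 ± 0.0137 in HP-AKI. The ratio of Il17rb to Il17ra was 0.550 ± 0.142 in sham and 0.0912 ± 0.0166 in HP-AKI, and that of Il15 to Il15ra 1.44 ± 0.155 and 0.585 ± 0.0738. These last 3 ratios did not overlap between the groups either. A ratio shows that partners changed unequally, and it was not tested apart from the genes in it.

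Several of these genes are neighbours, and neighbours did not all move alike. On chromosome 1 of GRCm38, from 40074079 to 40551705, the 6 receptor genes Il1r2, Il1r1, Il1rl2, Il1rl1, Il18r1 and Il18rap lie in that order on the plus strand over 477.6 kb. All of them rose except Il1rl1, which lies among them and fell. On chromosome 2, from 24153161 to 24351494, Il1f8, Il1f9, Il1f6, Il1f5, Il1f10 and Il1rn lie on the plus strand over 198.3 kb. Here Il1f9, Il1f6 and Il1rn rose, Il1f5 between them fell, and Il1f8 and Il1f10 were too rare to test, at 1 and 3 counts in sham and 3 and 1 in HP-AKI. Another cluster, on chromosome 1 from 130882074 to 131024974, holds Il24, Il20, Il19 and Il10. Of its genes Il24 alone could be tested with the filter, and without it all 4 were called higher, as were 25.7% of all genes. Il20, with 0 reads in sham and 12 in HP-AKI, and Il10, with 3 and 18, had overlapping groups.

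**Figure D4:**
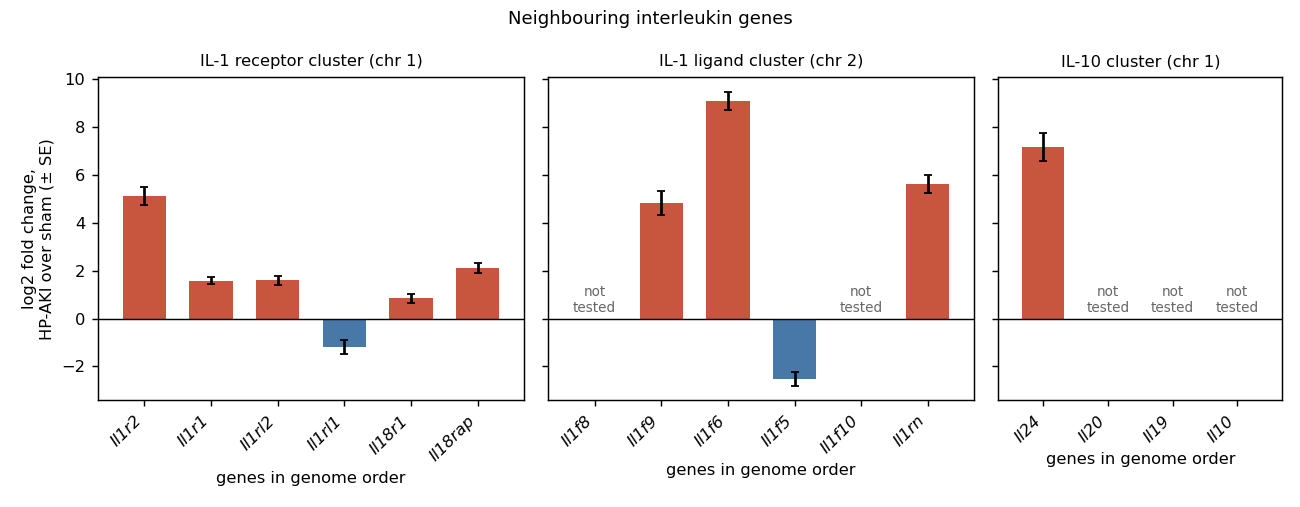
Log2 fold change of HP-AKI over sham (y axis, ± SE) of the genes of 3 interleukin clusters in the order in which they lie on the chromosome (x axis), with genes too rare to test marked as such. Il1rl1 at -1.17 and Il1f5 at -2.52 are the only tested genes of these clusters that fell.

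Elsewhere, the genes with the largest changes lie apart. In the coordinates of the deposited table, Il6 (ENSMUSG00000025746) lies on chromosome 5 from 30013161 to 30019968 on the plus strand, Il11 (ENSMUSG00000004371) on chromosome 7 from 4773055 to 4782857 on the minus strand and Il34 (ENSMUSG00000031750) on chromosome 8 from 110741829 to 110805924 on the minus strand. Il20rb (ENSMUSG00000044244) lies on chromosome 9 from 100457719 to 100486788 on the minus strand and Il22ra1 (ENSMUSG00000037157) on chromosome 4 from 135728172 to 135752140 on the plus strand. Il7 (ENSMUSG00000040329) lies on chromosome 3 from 7569994 to 7613760 on the minus strand, Il15 (ENSMUSG00000031712) on chromosome 8 from 82331637 to 82403222 on the minus strand and Il17rb (ENSMUSG00000015966) on chromosome 14 from 29996141 to 30008896 on the minus strand. Il4ra (ENSMUSG00000030748), on chromosome 7 from 125552282 to 125579472 on the plus strand, has Il21r (ENSMUSG00000030745) as its neighbour, from 125603429 to 125633570 on the same strand, and only Il4ra of this pair passed the test. Likewise Il17re and Il17rc follow each other on chromosome 6, from 113458484 to 113470751 and from 113471427 to 113483140, and only Il17rc passed.

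The signalling genes downstream were read from 5 lists, 35 of whose 53 tested genes were called, 28 higher and 7 lower, against 72.8% of all genes tested, 37.7% higher and 35.2% lower. The share called was thus no higher than over all genes. Changes named here are log2 fold changes ± SE that passed the same edgeR test. Of 14 adaptors and kinases of the IL-1 and IL-17 receptors, 10 rose and 1 fell. Nfkbiz, an NF-kB cofactor induced by IL-1 and IL-17, rose by 2.61 ± 0.10 and Irak3, a kinase-dead inhibitor of the pathway, by 2.41 ± 0.20. Sigirr, an inhibitory receptor, fell by 0.97 ± 0.21. Irak1, Irak4 and Tab1 did not pass, though Tab1 passed as lower in 7 of 20 alternative analyses. Of 7 genes that process IL-1 family ligands, 3 rose, led by Casp4 at 1.46 ± 0.26 and Nlrp3 at 1.15 ± 0.24. The other 4 did not pass. They were Casp1, which cleaves pro-IL-1 beta and pro-IL-18, Pycard, Gsdmd and Nlrc4. Of 11 JAK kinases and STAT factors, 4 rose and 2 fell. Stat3, the main target of IL-6 family receptors, was at 52.4 to 73.1 CPM in sham and 292 to 401 CPM in HP-AKI and rose by 2.39 ± 0.11. Jak3, the partner of the common gamma chain, rose by 1.23 ± 0.17. Stat5b fell by 0.29 ± 0.10, a call that was lost with library size as the only scaling. Jak2, Tyk2, Stat2 and Stat5a did not pass, though Stat2 passed as higher in 4 of 20 alternatives and Jak2 in 3.

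The last lists hold feedback inhibitors and relatives of the family. Of 7 tested SOCS genes, 4 rose and 2 fell. Socs3, which blocks gp130 signalling, was at 0.929 to 1.80 CPM in sham and 35.9 to 47.4 CPM in HP-AKI and rose by 4.92 ± 0.16. Socs2 rose by 1.19 ± 0.23. Cish, a STAT5 target, fell by 0.76 ± 0.20 and Socs5 by 0.47 ± 0.11, while Socs4 did not pass but did so as higher in 6 of 20 alternatives. Of 14 tested family members without an Il symbol, 7 rose and 2 fell. Lif, a gp130 ligand, rose by 5.01 ± 0.21 and Clcf1, another, by 3.70 ± 0.13. The gp130 ligand Ctf1 fell by 1.00 ± 0.14 and the receptor chain Lifr by 0.59 ± 0.10. Cntf did not pass. Ligands acting through gp130 were thus higher in Il6, Il11, Lif and Clcf1 and lower in Ctf1.

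Leukocyte markers were read beside these genes. Of 12 neutrophil markers 7 were tested, 6 higher and 1 (Ltf) lower, where 37.7% of all genes tested were called higher and 35.2% lower. Elane and Camp, made in immature neutrophils, had no count in sham. The summed level of the 12 was 2.52 to 4.47 CPM over the sham libraries. It was 41.2, 172, 62.4, 20.8, 25.9 and 64.3 CPM in HP-AKI 7, 8, 9, 11, 12 and 13. HP-AKI 8 was also the highest HP-AKI library in 14 of the 26 interleukin genes that rose, Il1b, Il1rn, Il1r2, Il18rap, Il1f9 and Il6 among them, and HP-AKI 12 the lowest in 13. Without HP-AKI 8 all 14 still passed as higher. The log2 fold change was then 1.14 for Il1b, 4.79 for Il1r2, 5.34 for Il1rn, 1.92 for Il18rap and 6.23 for Il6. Il34 had its highest level in HP-AKI 12. Il20rb, Il6ra and Il4ra had theirs in HP-AKI 13, whose neutrophil sum came next after that of HP-AKI 8. On the second principal component HP-AKI 8 lay at the same end as sham 1 and sham 2, whose neutrophil sums were 2.59 and 3.15 CPM. Among sham libraries, sham 2 was highest for Il1r1, Il1rl2, Il1b, Il6, Il6st and Il13ra1, and sham 1 for Il18rap and Il18bp. Of the rest of the 14, Il1r2 was highest in sham 5, Il1f6, Il1f9, Il1rn and Il7r in sham 6, and Il24 had no sham count. The part of neutrophils or of this component in these results was not tested.

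**Figure D5:**
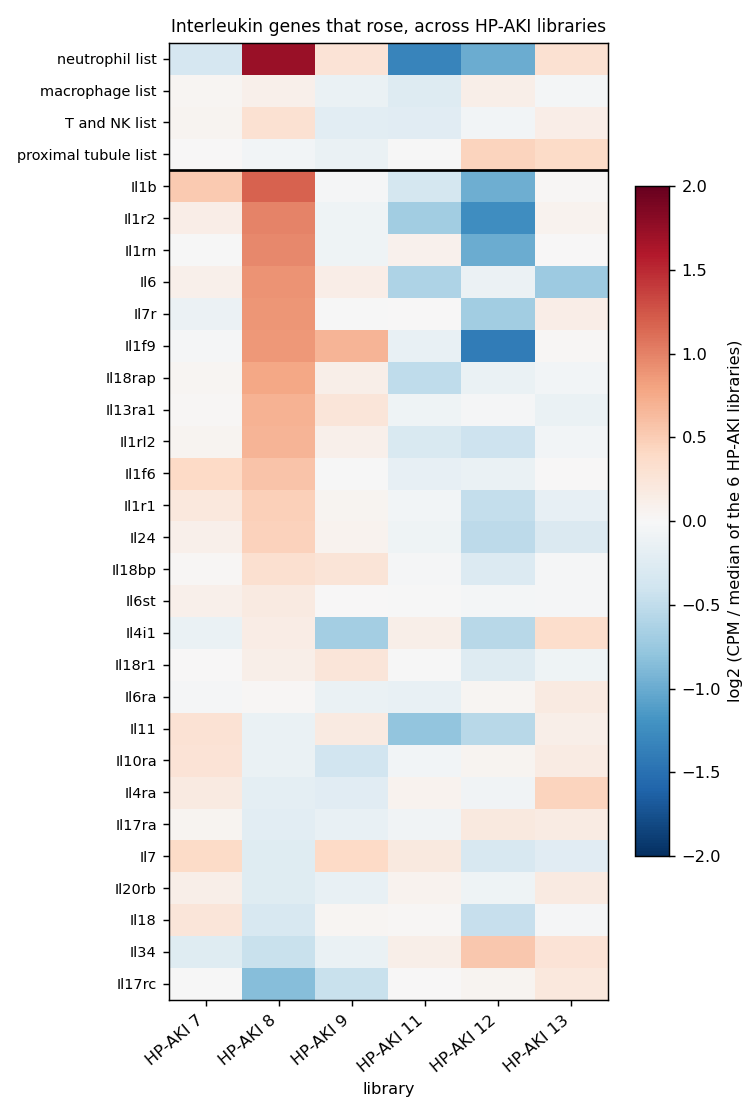
Level of each interleukin gene that rose in each of the 6 HP-AKI libraries, divided by its median over those libraries and shown as log2 (colour), with genes down and libraries across, under the summed levels of 4 marker lists. HP-AKI 8 stands at 1.98 times the median for Il1r2, 2.25 for Il1b and 1.72 for Il18rap, but at 0.734 for Il34.

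Markers of the other leukocytes went in other directions. Their counts stand beside 37.7% called higher and 35.2% lower over all genes tested. Of 15 macrophage and monocyte markers 4 rose (Cd68, Cd14, Itgam and Ly6c2), 6 fell (Adgre1, Cx3cr1, Csf1r, Ccr2, Lyz2 and Fcgr1) and 5 did not pass, and their summed level was 238 to 268 CPM in sham and 235 to 304 CPM in HP-AKI. Csf1r, the receptor for Il34, was at 39.7 to 59.2 CPM in sham and 22.5 to 29.3 CPM in HP-AKI, so ligand and receptor differed in opposite directions. Of 3 tested B cell markers 1 fell, and of 6 dendritic cell markers 3 fell. The 1 tested marker of mast cells, basophils and eosinophils fell, and none of these lists had a rise. Summed levels in sham and HP-AKI were 2.40 to 3.03 and 1.22 to 1.63 CPM for the B cell list. They were 25.6 to 33.8 and 21.2 to 30.0 CPM for the dendritic list, and 1.27 to 1.98 and 0.452 to 0.903 CPM for the mast cell list. Of 8 tested T and NK cell markers 7 fell and none rose, and the summed level of the list of 15 was 8.40 to 11.9 CPM in sham and 2.79 to 4.02 CPM in HP-AKI. Il15, Il2rb and Il2ra were lower in the same libraries. The part of these cells in the levels of Il15, Il2rb, Il2ra and Il34 was not tested.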

How the data were processed

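Kidney RNA of 6 sham and 6 HP-AKI samples at day 1 was sequenced on an Illumina HiSeq instrument. Per the submitters' processing notes, TopHat2 2.1.0, featureCounts, edgeR and GRCm38 were used, without their roles or settings. The authors deposited a table of whole-number counts for every gene and sample, without normalization. Beside them the authors deposited RPKM values and a column of gene lengths. The sample total behind the RPKM was 2.97 to 3.47 times the sum of counts, and no test used RPKM.

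Genes were kept by filterByExpr (17470 genes), scaled by TMM, and tested with the quasi-likelihood test of edgeR 4.0.16 under R 4.3.3, two-sided, with p-values adjusted by Benjamini-Hochberg. The SE is the size of the log2 fold change divided by the square root of F. CPM values use TMM-scaled library sizes, and "no overlap" means that the ranges of the 6 libraries of each group are apart. DESeq2 1.42.0 and limma-voom (limma 3.58.1) were alternatives. So were other scaling factors, other filters, each library left out, and sham 1, sham 2 and HP-AKI 8 left out together. The steps were tested on simulated data in which most genes were unchanged. Here 72.8% of genes tested were called, and that simulation does not cover so broad a change. Exact counting intervals are at 95% confidence and, like floors of 3 counts over a group, cover counting error only. Overlaps of exons come from GENCODE vM21, where all 82 genes were found. Tables and figures used Python 3.11.15, pandas 2.3.3 and matplotlib 3.10.9.

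Values were given for genes called with a mean of at least 1 CPM in a group, for rarer called genes without overlap, and for genes not called with a mean of at least 5 CPM. Of each signalling list, the 2 called genes with the largest change in each direction and those not called at 5 CPM or more were named. A result that this rule would name is not reported here. The interleukin genes, lists and alternatives were chosen with earlier results of these data known. Names that spell out a small count, Casp1 and Gsdmd among them, and Csf1r, were chosen after their values were seen.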

Additional observations from a re-analysis of the deposited data

Results flagged for a closer look

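Il18rap, the accessory chain of the IL-18 receptor, had 1 HP-AKI library apart from the others. HP-AKI 8 stood at 10.7 CPM, while the next library stood at 6.74 CPM. The gap made up 0.626 of the group's whole range, just above Dixon's 95% critical value for 6 libraries. Over the 76 groups of values examined this was the 1 such library, and chance alone picks out about 1 group in 20. The gene passed as higher without that library, with a log2 fold change of 1.92. HP-AKI 8 was also the library with the highest summed neutrophil markers, at 172 CPM. It lay with sham 1 and sham 2 at one end of the second principal component as well.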

How the results depend on the processing

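No paired analysis was possible because the groups share no replicate numbers. The count of interleukin genes called was 35 to 40 when single libraries were left out, 36 to 39 under the other scalings and 50 without a filter. A filter of 1 CPM in 6 libraries left 29, and 7 of these were lower, against 12. That filter tests fewer of the rare genes. Of the 38 called genes 35 were called in the same direction in every alternative that could fit them. Il18, Il10ra and Il27ra lost their call in some, and none reversed. Of the 8 not called, Il15ra passed without sham 5, Il17rd with library size only, and Il1rap with library size only, without sham 1, and without sham 1, sham 2 and HP-AKI 8 together. Among the signalling genes named, Stat5b lost its call with library size only, at -0.18. Tab1 passed as lower with sham 1, sham 2 or HP-AKI 13 left out singly, without sham 1, sham 2 and HP-AKI 8 together, and with upper-quartile factors, no filter or DESeq2. Socs4 passed as higher with the same libraries left out singly, without the 3 libraries, with library size only and by limma-voom. Stat2 passed as higher with sham 5 or HP-AKI 8 left out singly, with library size only and with the 1 CPM filter. Jak2 passed as higher without sham 2, without the 3 libraries and with library size only, Irak1 as higher with library size only, and Pycard and Gsdmd as lower without the 3 libraries. Library size only moved the median of all genes from 0.04 to 0.16. The fitted value of Il24, with no sham count, was 7.16, against 6.57 by DESeq2 and 5.15 by limma-voom. Il1f6 moved from 9.08 to 10.94 without sham 6.

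Among the genes named, the sign turned only in ones that were not called. With library size only the log2 fold change was 0.025 for Il17re, 0.10 for Il31ra, 0.090 for Tyk2 and 0.033 for Stat5a. With RLE factors it was -0.0050 for Il2rg and -0.0064 for Cntf. With upper-quartile factors it was -0.041 for Il2rg, -0.0092 for Irak4 and -0.040 for Cntf. Without a filter Il2rg was at -0.025 and Cntf at -0.024. DESeq2 gave -0.0035 for Il2rg and -0.0064 for Cntf, and limma-voom -0.14 and -0.0041. Leaving out single libraries gave -0.22 to 0.13 in Il31ra, -0.0075 to 0.17 in Il33, -0.28 to 0.12 in Il2rg, -0.011 to 0.067 in Irak4, -0.11 to 0.027 in Tyk2, -0.16 to 0.0014 in Stat5a and -0.13 to 0.067 in Cntf. Without sham 1, sham 2 and HP-AKI 8 together, Il2rg was at -0.26, Irak4 at -0.014 and Cntf at -0.013. The cause was not tested. The median SE of an interleukin gene was 0.19 on the log2 scale, and 36 of the 82 genes had too few counts for the main test.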
